A study of Mus musculus with 9 samples.

Results

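The let-7 family was followed in small extracellular vesicles (smEVs) released by mouse kidney cells that lack Bbs4 or Bbs6. It was taken as the 9 rows of the miRNA count table named mmu-let-7a, 7b, 7c, 7d, 7e, 7f, 7g, 7i and mmu-miR-98, of 1164 miRNA rows in all, chosen by name. The vesicles came from kidney medullary (KM) cells, immortalised mouse lines, that were wild-type (WT), Bbs4-/- or Bbs6-/-. Bbs4 is a subunit of the BBSome, a complex that carries cargo in and out of the primary cilium, and Bbs6 is a chaperonin-like protein needed to put the complex together. All cells, WT included, were kept without serum for 24 h before vesicles were pelleted from the medium by differential centrifugation, and small RNA from 3 pellets of each genotype was sequenced. The labels name 1 line for each genotype, so genotype and cell line cannot be told apart, and the p-values measure the spread between pellets of a line.

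The let-7 miRNAs are among the most conserved of animals. A mature let-7 guides Argonaute to messenger RNAs mainly through its seed, bases 2 to 8, and lowers their translation and stability. The RNA-binding protein Lin28 blocks their maturation in stem and progenitor cells, and the mature forms accumulate as tissues differentiate, where they restrain growth regulators such as Hmga2, Myc and Ras. Differentiated epithelia hold much let-7, and let-7 is commonly found in extracellular vesicles.

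The mature sequences are shown because the 9 rows share a seed and differ by few bases elsewhere, which bears on how well their reads can be told apart. They are written 5′ to 3′ as RefSeq lists them for GRCm38.p6, with the seed in capitals. RefSeq names these sequences with the ending -5p, as in mmu-let-7a-5p. The row names lack this ending, and the match of row to sequence was assumed.
mmu-let-7a: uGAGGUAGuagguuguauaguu
mmu-let-7b: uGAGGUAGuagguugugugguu
mmu-let-7c: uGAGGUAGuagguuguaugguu
mmu-let-7d: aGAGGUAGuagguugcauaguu
mmu-let-7e: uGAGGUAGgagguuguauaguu
mmu-let-7f: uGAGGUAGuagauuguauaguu
mmu-let-7g: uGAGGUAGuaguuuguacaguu
mmu-let-7i: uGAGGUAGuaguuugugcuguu
mmu-miR-98: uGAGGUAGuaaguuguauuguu
The seed GAGGUAG stood in all 9 sequences, each 22 bases long. It was found in 11 mature names of the RefSeq list, the other two being mmu-let-7k and mmu-miR-1961. Of the 36 pairs of members, 4 differed by 1 base and 10 by 2, and the most distant pair, mmu-let-7d and mmu-let-7i, differed by 6. Counted from the 5′ end, with the base of mmu-let-7a first, mmu-let-7c differed from mmu-let-7a by A19G, mmu-let-7e by U9G and mmu-let-7f by G12A. The member mmu-let-7b carried A17G and A19G, mmu-let-7d U1A and U16C, and mmu-let-7g G12U and U18C. The member mmu-miR-98 carried G11A and A19U. How many mismatches were allowed in counting is not given in the sources used here, so the split of reads between the closest members, in particular among mmu-let-7a, 7c, 7e and 7f and between mmu-let-7b and 7c, is uncertain.

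The genes of the family lie at several places in the genome, some side by side. In GRCm38.p6, Mirlet7d (chr13:48536012-48536114), Mirlet7f-1 (chr13:48537829-48537917) and Mirlet7a-1 (chr13:48538179-48538272) follow each other on the minus strand and overlap an exon of the lincRNA 6720427I07Rik. Mirlet7c-2 (chr15:85706603-85706697) and Mirlet7b (chr15:85707319-85707403) lie 621 bases apart on the plus strand, in the non-coding transcript Lncppara. Mirlet7f-2 (chrX:151912346-151912428) and Mir98 (chrX:151913214-151913321) lie 785 bases apart in an intron of Huwe1, a ubiquitin ligase gene. Mirlet7e (chr17:17830352-17830444) lies in an intron of Spaca6 and 367 bases from Mir125a. Mirlet7c-1 (chr16:77599657-77599750) lies 656 bases from Mir99a, and Mirlet7a-2 (chr9:41536716-41536811) lies 5211 bases from Mir100. Mirlet7g (chr9:106178840-106178927) lies in an intron of Wdr82, and Mirlet7i (chr10:122985640-122985724, minus strand) overlaps an exon of the transcribed pseudogene D630033A02Rik. The mature mmu-let-7a, 7c and 7f can come from more than one of these genes. For a miRNA with several entries the study used the entry with most counts, so a row is not a sum over genes and does not say which gene was the source.

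The libraries held 64118 to 130905 miRNA counts in WT, 176935 to 457163 in Bbs4-/- and 192654 to 423784 in Bbs6-/-. The deepest WT library thus had fewer counts than the shallowest library of either mutant. Levels are given as CPM (counts scaled to library size) after TMM scaling, edgeR's correction for differences in composition, with factors of 1.06 to 1.28 in WT, 0.894 to 1.05 in Bbs4-/- and 0.824 to 0.946 in Bbs6-/-. No 2 libraries of a line agreed within counting noise, so each was counted as a sample of its own. Bbs6-/- replicate 2 stood apart from replicates 3 and 4, with a summed let-7 share of 24.0% of counts against 33.0% and 33.6%, and with mmu-miR-200c at 176 CPM against 3653 and 4414 CPM. Of 10 renal epithelial miRNAs, 10 had counts in each mutant and 9 in WT, where mmu-miR-141 was at 0 and mmu-miR-200c had 1 to 2 counts per library, against 3243 to 3373 CPM in Bbs4-/-. Their summed level was 37407 to 46174 CPM in WT, 62208 to 65708 CPM in Bbs4-/- and 47676 to 51074 CPM in Bbs6-/-. Most of that sum was mmu-miR-30a, at 28643 ± 3445 CPM in WT, 45966 ± 1550 CPM in Bbs4-/- and 29225 ± 4332 CPM in Bbs6-/- (SD, n = 3 each). Other rows of this list had few counts. Summed over 3 libraries, mmu-miR-194 had 108 in Bbs4-/-, 127 in Bbs6-/- and 26 in WT. In the same order mmu-miR-192 had 72, 90 and 25, mmu-miR-204 had 14, 43 and 21, and mmu-miR-215 had 7, 8 and 1. The blood row mmu-miR-486a had 46, 31 and 23. By contrast mmu-miR-200a, mmu-miR-200b and mmu-miR-429 each had at least 508 in every genotype. The 7 blood and serum miRNAs summed to 142 to 255 CPM in WT, 119 to 190 CPM in Bbs4-/- and 71.8 to 98.8 CPM in Bbs6-/-, and 5 mesenchymal miRNAs to 107 to 181 CPM in WT, 128 to 291 CPM in Bbs4-/- and at most 78.6 CPM in Bbs6-/-. In these lists mmu-miR-486a and mmu-miR-486b held the same counts as each other in every library, as did mmu-miR-199a and mmu-miR-199b. The sums include both rows of each pair and are too high if the reads were the same. The liver miRNA mmu-miR-122 was at 26.7 to 85.1 CPM in WT, 0 to 8.96 CPM in Bbs4-/- and 0 to 75.2 CPM in Bbs6-/-. The part of depth, of these markers and of Bbs6-/- replicate 2 in the results was not tested beyond the values given beside them.

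Together the 9 members made up between 22.2% and 33.6% of all miRNA counts. The summed share was 24.9%, 22.2% and 24.1% in the WT libraries (23.8% ± 1.39, SD, n = 3). In Bbs4-/- it was 29.3%, 23.7% and 29.6% (27.5% ± 3.30, SD, n = 3), and in Bbs6-/- it was 24.0%, 33.0% and 33.6% (30.2% ± 5.36, SD, n = 3). Both mutants therefore had higher means than WT, but 1 library of each, Bbs4-/- replicate 2 and Bbs6-/- replicate 2, lay within the WT range. The 95% Wilson intervals of these shares were 0.265 to 0.670 percentage points wide, so counting error was small beside the spread between pellets. The most abundant single miRNA, mmu-miR-21a, took 11.3%, 11.99% and 11.5% of counts in the WT libraries, 17.1% to 20.1% in Bbs4-/- and 17.9% to 22.9% in Bbs6-/-. With mmu-miR-21a left out of the total, the members' share was 25.3% to 28.1% in WT, 29.7% to 36.2% in Bbs4-/- and 31.1% to 40.9% in Bbs6-/-, and every mutant library lay above every WT library. These shares are sums over chosen rows and are given as a description, with no test. If reads were counted in more than 1 member, the sums are too high, and the lower bound given by the most abundant member alone was 6.26% to 8.50% of counts.

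**Figure D1:**
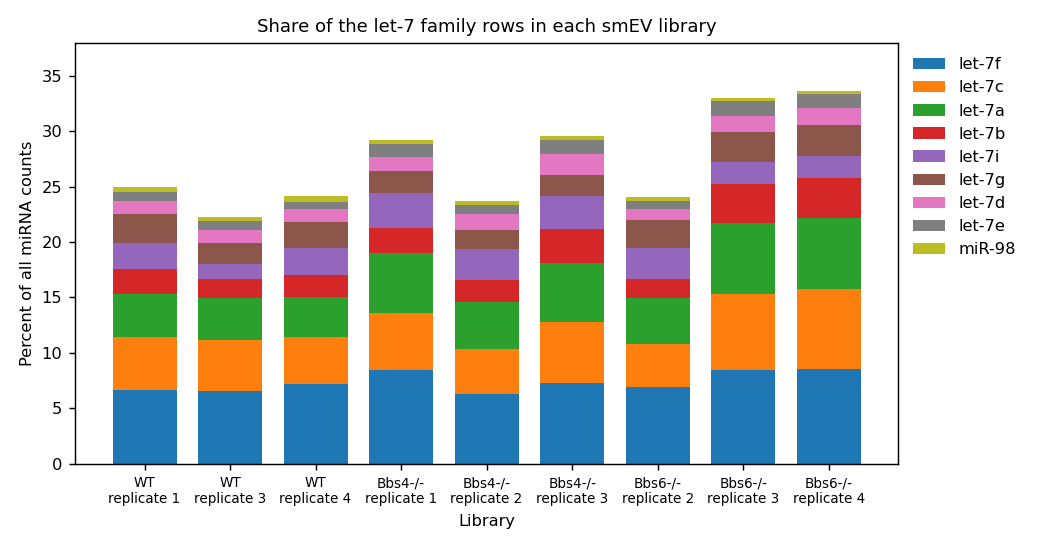
Share of all miRNA counts (y axis, percent, from 0) held by each of the 9 members, stacked, in the 3 WT, 3 Bbs4-/- and 3 Bbs6-/- libraries (x axis). The summed share lies between 22.2% and 33.6%, and Bbs4-/- replicate 2 and Bbs6-/- replicate 2 lie at the height of WT.

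The order of the members was nearly the same in all 9 libraries. The most abundant was mmu-let-7f in 9 of 9 libraries, with 26.5% to 29.8% of the members' counts in WT, 24.5% to 29.0% in Bbs4-/- and 25.3% to 28.8% in Bbs6-/-. The next places were held by mmu-let-7a and mmu-let-7c, which changed places with each other, mmu-let-7c being ahead in 6 of 9 libraries. Behind them mmu-let-7b, 7g and 7i shared places 4 to 6 in an order that differed between libraries. In all 9 libraries mmu-let-7d was at place 7, mmu-let-7e at place 8 and mmu-miR-98 at place 9. All members are equally long, so counts could be set side by side, although ligation and mapping can favour 1 sequence over another and this was not tested.

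**Figure D2:**
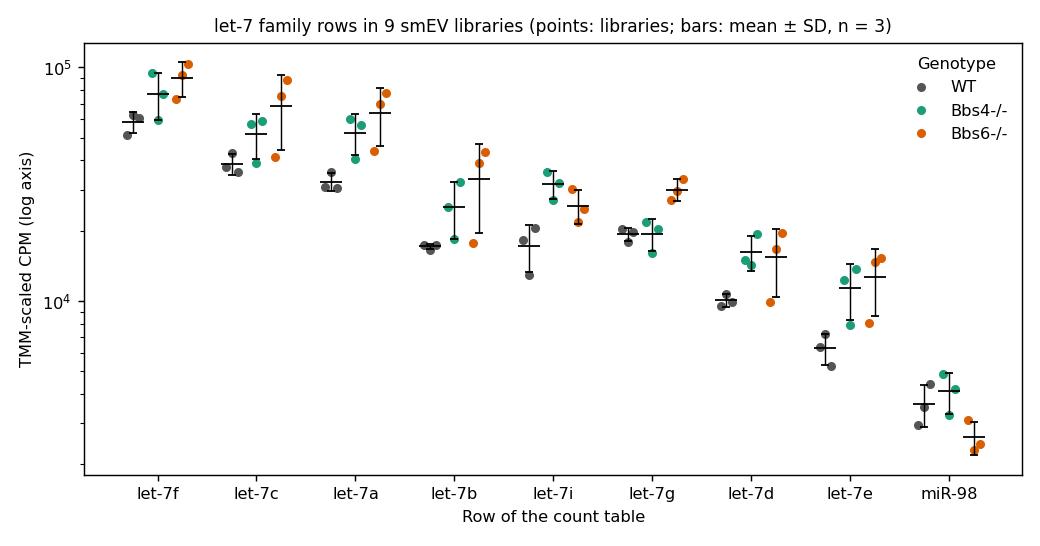
Level of each member (y axis, TMM-scaled CPM on a log axis) in each library, coloured by genotype, with the mean and SD of 3 libraries. In every library mmu-let-7f is highest and mmu-miR-98 lowest, and all 3 Bbs4-/- points lie above WT for mmu-let-7a, 7b, 7d, 7e and 7i. How many of all miRNAs were separated in this way was not counted.

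The comparison of each mutant with WT asks which vesicle miRNAs differ between the lines, for which genotype and cell line cannot be told apart. After TMM scaling the levels of mmu-let-7a, 7d, 7e and 7i were 1.49 to 1.69 times higher in Bbs4-/- than in WT, and no member passed as lower. Such levels are relative to the other miRNAs of a library and are not amounts per vesicle. By edgeR's quasi-likelihood test, 4 of 9 members passed at a Benjamini-Hochberg adjusted p under 0.1, all higher. Among all 308 miRNAs tested, 8.77% were called higher and 6.49% lower. None of the members reached the log2 fold change of 2 that the study also required. The members' median log2 fold change was 0.45, against -0.02 over all miRNAs tested, and 8 of 9 were above 0. Outside the family, the abundant mmu-miR-21a had a larger one than any member, 0.84 ± 0.19 (edgeR adjusted p = 0.00968). For mmu-miR-30a it was 0.57 ± 0.18 (edgeR adjusted p = 0.0578).

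The member with the largest difference in Bbs4-/- was mmu-let-7i, transcribed from a gene of its own. It stood at 35718, 27035 and 32145 CPM in Bbs4-/- and at 18272, 12886 and 20537 CPM in WT, without overlap, a log2 fold change of 0.76 ± 0.22 (SE, adjusted p = 0.0312). The level of mmu-let-7e, the neighbour of mmu-miR-125a, was 12347, 7923 and 13750 CPM in Bbs4-/- and 6334, 7231 and 5294 CPM in WT, a log2 fold change of 0.74 ± 0.22 (adjusted p = 0.0449). Here too the groups did not overlap, although Bbs4-/- replicate 2 lay close to the highest WT library. For mmu-let-7a the libraries were at 60108, 40656 and 56733 CPM in Bbs4-/- and 30842, 35790 and 30544 CPM in WT (log2 fold change 0.58 ± 0.20, adjusted p = 0.074). Its cluster neighbour mmu-let-7d was at 15040, 14266 and 19342 CPM in Bbs4-/- and 9543, 10749 and 9891 CPM in WT (0.58 ± 0.19, adjusted p = 0.0627). For both, every Bbs4-/- library lay above every WT library. The share of all miRNAs whose libraries did not overlap was not counted, so a lack of overlap is given only as a description.

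The other 5 members did not pass in Bbs4-/-. The libraries of mmu-let-7b did not overlap, at 18503 to 32252 CPM in Bbs4-/- and 16600 to 17385 CPM in WT, but the log2 fold change of 0.45 ± 0.21 had an adjusted p of 0.192. As percent of counts, without TMM, these libraries did overlap, Bbs4-/- replicate 2 holding 1.94% and the WT libraries 1.75% to 2.23%. The log2 fold change was 0.31 ± 0.20 for mmu-let-7c (adjusted p = 0.365) and 0.29 ± 0.21 for mmu-let-7f (adjusted p = 0.406), with overlapping libraries. The mean of mmu-let-7g was 19392 ± 2944 CPM in Bbs4-/- and 19289 ± 1207 CPM in WT (SD, n = 3 each), with a log2 fold change of -0.10 ± 0.19 (adjusted p = 0.774). For mmu-miR-98 the means were 4108 ± 812 and 3626 ± 738 CPM, a log2 fold change of 0.06 ± 0.23 (adjusted p = 0.913) whose sign turned under other scalings.

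In Bbs6-/- the TMM-scaled levels of mmu-let-7a, 7b, 7c, 7e, 7f and 7g were higher than in WT, by 1.57 to 2.09 times. By the same test 6 of 9 members passed, all higher, among 298 miRNAs of which 9.73% were called higher and 5.37% lower. Again none reached a log2 fold change of 2. The members' median log2 fold change was 0.66, against -0.01 over all miRNAs tested, and 8 of 9 were above 0, the exception being mmu-miR-98. Here too mmu-miR-21a had a larger one than any member, 1.18 ± 0.14 (edgeR adjusted p = 0.00201). That of mmu-miR-30a was 0.05 ± 0.16 (edgeR adjusted p = 0.894). The 2 comparisons share their WT libraries and are not independent of each other.

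The largest difference in Bbs6-/- was that of mmu-let-7e. It was at 8056, 14723 and 15336 CPM in Bbs6-/- against 6334, 7231 and 5294 CPM in WT, a log2 fold change of 1.06 ± 0.28 (adjusted p = 0.0498). The level of mmu-let-7a was 43710, 69740 and 77480 CPM in Bbs6-/-, above all WT libraries (1.01 ± 0.24, adjusted p = 0.0374). For mmu-let-7b the Bbs6-/- libraries were at 17714, 39012 and 43370 CPM and the WT libraries at 17385, 16600 and 17370 CPM (1.00 ± 0.33, adjusted p = 0.0865). In these 3 members Bbs6-/- replicate 2 was the lowest mutant library, and for mmu-let-7b it was hardly above WT. The same held for mmu-let-7c, the neighbour of mmu-let-7b, at 41372, 75502 and 88316 CPM in Bbs6-/- and 37310, 43146 and 35496 CPM in WT. It passed (0.87 ± 0.28, adjusted p = 0.0848) although its replicate 2 lay within the WT range.

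The abundant mmu-let-7f was at 73075, 93181 and 103134 CPM in Bbs6-/- and 51449, 62417 and 60895 CPM in WT, without overlap in TMM-scaled CPM (0.66 ± 0.19, adjusted p = 0.0614). As percent of counts, without TMM, these groups overlapped, Bbs6-/- replicate 2 holding 6.91% and the WT libraries 6.60% to 7.20%. In percent of counts Bbs6-/- and WT also overlapped for mmu-let-7b, 7e, 7g and 7i. The single-gene member mmu-let-7g, which did not pass in Bbs4-/-, was at 26934, 29511 and 33363 CPM in Bbs6-/- and at 20254, 17935 and 19678 CPM in WT (0.65 ± 0.19, adjusted p = 0.0614). Its 3 Bbs6-/- libraries lay closer together than those of the other passing members relative to their mean. For mmu-let-7i, at 21763 to 30161 CPM in Bbs6-/- and 12886 to 20537 CPM in WT, the libraries did not overlap, but the log2 fold change of 0.56 ± 0.23 did not pass (adjusted p = 0.193). For mmu-let-7d it was 0.65 ± 0.27 (adjusted p = 0.183), with replicate 2 at 9872 CPM inside the WT range. The means of mmu-miR-98 were 2615 ± 425 CPM in Bbs6-/- and 3626 ± 738 CPM in WT (SD, n = 3 each), a log2 fold change of -0.46 ± 0.22 that did not pass (adjusted p = 0.254).

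**Figure D3:**
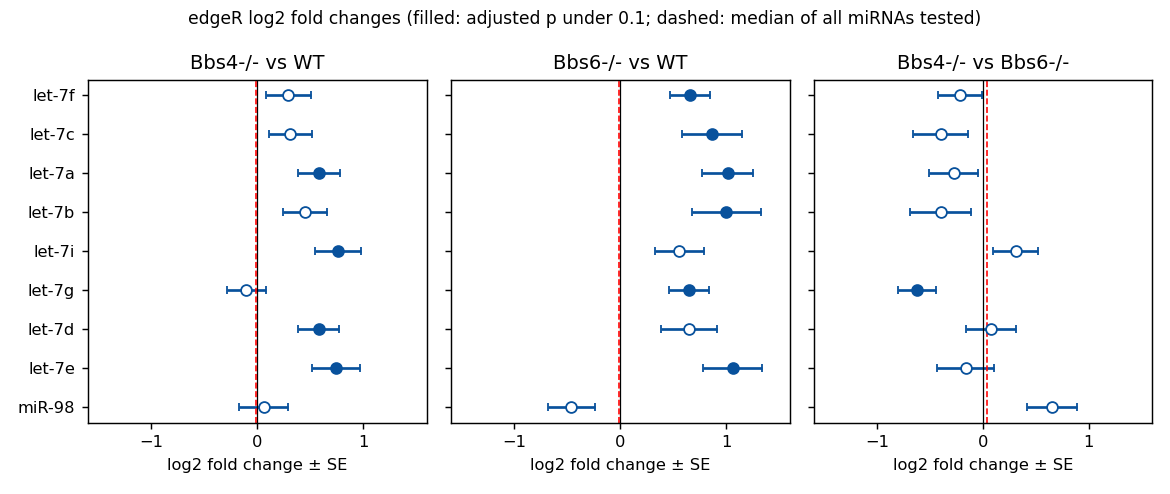
Log2 fold change with its SE (x axis) of each member (y axis) in Bbs4-/- against WT, Bbs6-/- against WT and Bbs4-/- against Bbs6-/-, with filled points for an adjusted p under 0.1 and a dashed line at the median of all miRNAs tested. Filled points number 4, 6 and 1, and mmu-miR-98 lies to the left of the other members in Bbs6-/-.

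The mutants were also compared with each other, in 1 fit over all 9 libraries and 309 miRNAs. In this contrast mmu-let-7g was lower in Bbs4-/- than in Bbs6-/-, and no other member passed. Its libraries, at 21766, 16097 and 20313 CPM in Bbs4-/- and 26934, 29511 and 33363 CPM in Bbs6-/-, did not overlap, and the log2 fold change was -0.63 ± 0.18 (adjusted p = 0.0623), so that Bbs6-/- was 1.54 times higher. Thus 1 of 9 members was called lower and 0 higher, where 3.88% of all miRNAs were called lower and 4.21% higher. At an unadjusted p under 0.05 there were 2 members, the other being mmu-miR-98. It was at 4880, 3261 and 4181 CPM in Bbs4-/- and 3101, 2310 and 2433 CPM in Bbs6-/-, without overlap, a log2 fold change of 0.65 ± 0.23 that did not pass (adjusted p = 0.139). For the members that passed against WT in 1 mutant and not in the other, mmu-let-7g excepted, the difference between the mutants was therefore not shown.

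The calls against WT depended on how libraries were scaled and on single libraries. With upper-quartile scaling 0 members passed in Bbs4-/-, where 19 of all 308 miRNAs were called higher and 32 lower, and 3 passed in Bbs6-/-, where 18 of 298 were called higher and 19 lower. Under TMM the calls over all miRNAs had been 27 higher and 20 lower in Bbs4-/- and 29 higher and 16 lower in Bbs6-/-. With total counts alone 2 passed in Bbs4-/-, mmu-let-7a and 7e, and in Bbs6-/- 1 passed, mmu-miR-98, which was lower there (-0.85, adjusted p = 0.0601). Over all miRNAs, total counts gave 22 higher and 29 lower calls in Bbs4-/- and 11 higher and 27 lower calls in Bbs6-/-. These scalings also moved the median log2 fold change of all miRNAs, to -0.20 in Bbs4-/- under both, and to -0.14 and -0.44 in Bbs6-/-. Relative to that median the members' own median lay 0.47 higher in Bbs4-/- and 0.67 higher in Bbs6-/- under TMM. A scaling shifts the log2 fold changes of all miRNAs by about the same amount, so this distance hardly changes with scaling by construction. When the TMM factors were computed without the let-7 rows, an alternative chosen after seeing the data, 4 members passed in Bbs4-/- and 2 in Bbs6-/-, mmu-let-7a and 7e, with 32 and 23 miRNAs called higher in all. With edgeR's filterByExpr, which kept 164 miRNAs in Bbs6-/- against WT and called 24 higher and 20 lower, mmu-let-7b, 7c and 7f missed the threshold (adjusted p = 0.118, 0.122 and 0.101) and mmu-miR-98 passed as lower (-0.57, adjusted p = 0.0839). DESeq2's own test called 4 and 6 members. Over all miRNAs it called 31 of 425 higher and 22 lower in Bbs4-/-, and 34 of 414 higher and 19 lower in Bbs6-/-.

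**Figure D4:**
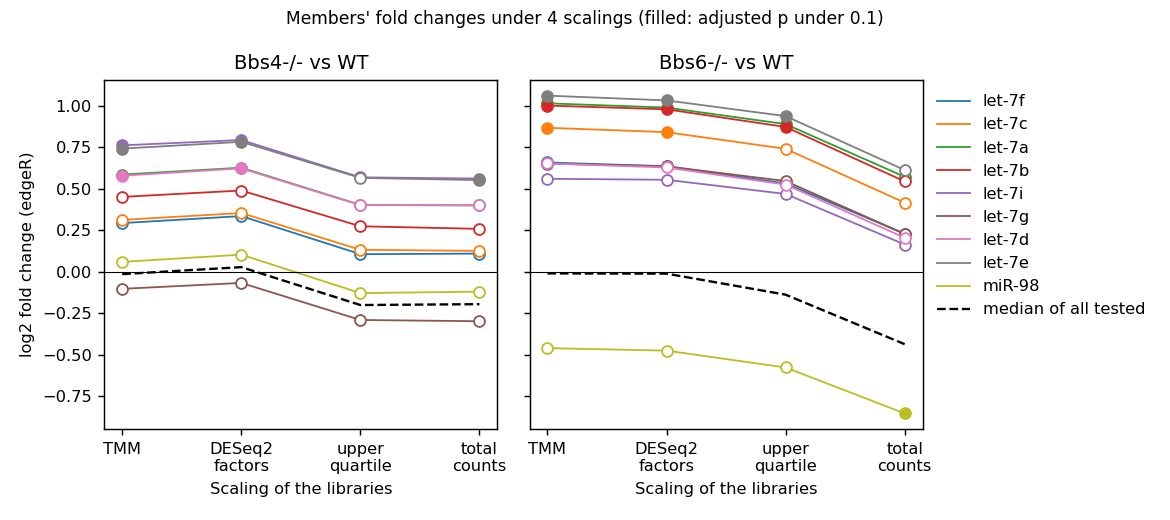
Log2 fold change against WT (y axis) of each member in Bbs4-/- (left) and Bbs6-/- (right) under 4 scalings of the libraries (x axis), with filled points for an adjusted p under 0.1 and a dashed line for the median of all miRNAs tested. The members' lines run nearly parallel to the dashed line, which ends at -0.20 on the left and -0.44 on the right, because a scaling shifts all miRNAs by about the same amount.

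Leaving out 1 library at a time left between 1 and 6 members passing in Bbs4-/- and between 0 and 7 in Bbs6-/-, and no member passed in every such fit of either comparison. The calls over all miRNAs moved as well, from 16 to 34 higher in Bbs4-/- and from 9 to 42 higher in Bbs6-/-. In Bbs4-/- 1 member passed without Bbs4-/- replicate 1, without Bbs4-/- replicate 3 or without WT replicate 4, and 6 passed without Bbs4-/- replicate 2. In Bbs6-/- 0 members passed without Bbs6-/- replicate 3, where 9 of 274 miRNAs were called higher, or without WT replicate 4, where 10 of 286 were, 1 passed without Bbs6-/- replicate 4 or WT replicate 3, and 2 passed without WT replicate 1. Without Bbs6-/- replicate 2, the library that stood apart, 7 passed, mmu-let-7d being added to the 6, and 42 of 288 miRNAs were called higher. In the direct contrast 5 passed without Bbs6-/- replicate 2, with mmu-let-7a, 7b, 7c and 7g lower and mmu-miR-98 higher in Bbs4-/-. There 21 of 303 miRNAs were called lower and 22 higher. In the same contrast 0 passed without Bbs4-/- replicate 1, Bbs4-/- replicate 2 or Bbs6-/- replicate 4. The calls over all miRNAs in these fits were 6 of 303, 8 of 298 and 8 of 298 higher, and 8, 9 and 7 lower.

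Ratios between rows of the same library do not depend on scaling. The 5 ratios were compared between the 3 pairs of genotypes by a two-sided exact permutation test of the mean log2 ratio, 15 tests in all. With 3 libraries against 3 the smallest p this test allows is 0.1, so no ratio could reach 0.05.

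The ratio of mmu-miR-98 to mmu-let-7f, whose genes Mir98 and Mirlet7f-2 are neighbours, was lowest in Bbs6-/-. It was 0.0574, 0.0562 and 0.0725 in WT, 0.0514, 0.0545 and 0.0543 in Bbs4-/- and 0.0424, 0.0248 and 0.0236 in Bbs6-/-. All 3 pairs of genotypes were without overlap, Bbs6-/- lying 1.08 below WT on the log2 scale and Bbs4-/- 0.21 below WT (exact permutation p = 0.1 each, adjusted p = 0.25). Bbs4-/- lay 0.87 above Bbs6-/- on that scale (exact permutation p = 0.1, adjusted p = 0.25). The row does not say how much of the mature mmu-let-7f came from Mirlet7f-2 and how much from Mirlet7f-1.

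Between the single-gene members, mmu-let-7i exceeded mmu-let-7g in all 3 Bbs4-/- libraries, with ratios of 1.64, 1.68 and 1.58. The ratio was 0.902, 0.718 and 1.04 in WT and 1.12, 0.737 and 0.740 in Bbs6-/-. Bbs4-/- thus lay above both without overlap, by 0.90 and 0.94 on the log2 scale (exact permutation p = 0.1 each, adjusted p = 0.25), while Bbs6-/- and WT overlapped (difference -0.05, exact permutation p = 1.0).

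The ratio of mmu-let-7d to mmu-let-7a, from neighbouring hairpins, was 0.309, 0.300 and 0.324 in WT and 0.226, 0.239 and 0.253 in Bbs6-/-. These groups did not overlap, with Bbs6-/- 0.38 lower on the log2 scale (exact permutation p = 0.1, adjusted p = 0.25). In Bbs4-/- it was 0.2502, 0.351 and 0.341 and overlapped both. The ratios of mmu-let-7b to mmu-let-7c, with geometric means of 0.444 in WT, 0.484 in Bbs4-/- and 0.477 in Bbs6-/-, overlapped in all 3 pairs. So did those of mmu-let-7e to mmu-miR-125a, with geometric means of 0.594, 0.672 and 0.584.

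**Figure D5:**
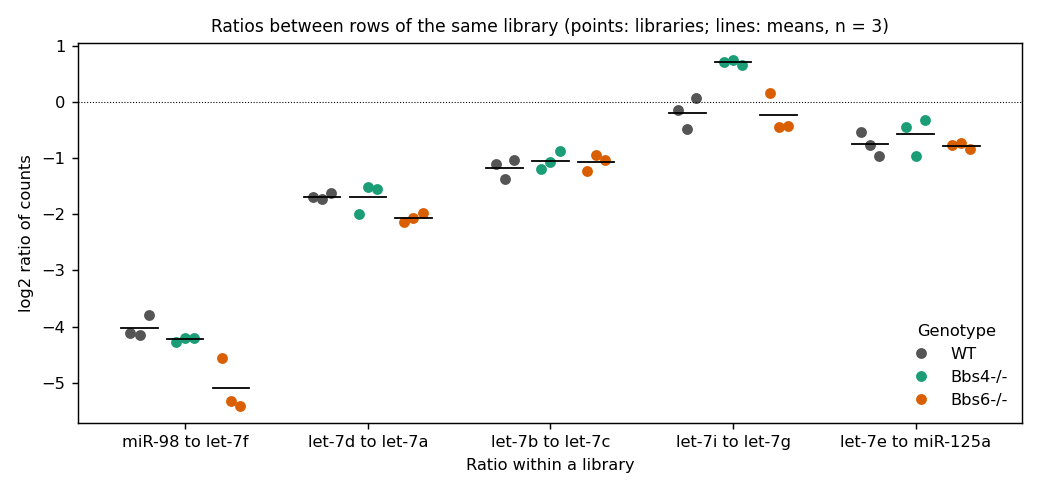
Log2 ratio of counts (y axis) for 5 pairs of rows (x axis) in each library, coloured by genotype, with a line at the mean of 3 libraries. Bbs6-/- lies lowest for mmu-miR-98 to mmu-let-7f, Bbs4-/- lies above 0 and above the other groups for mmu-let-7i to mmu-let-7g, and the groups overlap for mmu-let-7b to mmu-let-7c and for mmu-let-7e to mmu-miR-125a.

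The members varied together across the 9 libraries to different degrees. The Pearson correlation of log2 CPM with the sum of the other members was 0.988 for mmu-let-7a, 0.960 for mmu-let-7e, 0.941 for mmu-let-7f, 0.938 for mmu-let-7c and 0.928 for mmu-let-7b. It was 0.851 for mmu-let-7d, 0.716 for mmu-let-7g, 0.437 for mmu-let-7i and -0.315 for mmu-miR-98 (n = 9 libraries each). These values are descriptions, since the points share 3 genotypes and closely similar members may share reads. The 5 miRNAs outside the family whose log2 CPM correlated most with that of the summed members, of 124 with a mean of at least 100 CPM, were mmu-miR-26a (r = 0.879), mmu-miR-191 (r = 0.858), mmu-miR-135b (r = 0.844), mmu-miR-200c (r = 0.831) and mmu-miR-200b (r = 0.826), over 9 libraries. Of these, mmu-miR-200b and mmu-miR-200c are epithelial miRNAs and belong to the renal epithelial list. The correlation does not weigh the size of a difference. The means of mmu-miR-26a were 8551 CPM in WT, 11809 CPM in Bbs4-/- and 14457 CPM in Bbs6-/-. Those of mmu-miR-135b were 95.4, 901 and 1657 CPM, and those of mmu-miR-200c 12.1, 3307 and 2748 CPM, in the same order.

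The let-7 genes have neighbours of the miR-99/100 and miR-125 families, which in Bbs6-/- passed in both directions. Of 7 such rows 6 were tested, and 2 were higher and 0 lower in Bbs4-/-, while 2 were higher and 2 lower in Bbs6-/-. Over all miRNAs tested, 8.77% were called higher and 6.49% lower in Bbs4-/-, and 9.73% higher and 5.37% lower in Bbs6-/-. A neighbour of Mirlet7e, mmu-miR-125a, was higher in both mutants (log2 fold change 0.52 ± 0.19, adjusted p = 0.0953 in Bbs4-/-, and 1.09 ± 0.27, adjusted p = 0.0417 in Bbs6-/-). The row mmu-miR-99b passed in neither (edgeR adjusted p = 0.228 and 0.671). Its gene was not among the hairpin positions used, so its distance from Mirlet7e is not given. The neighbour of Mirlet7c-1, mmu-miR-99a, had 0, 1 and 4 counts in WT, 17, 51 and 58 in Bbs4-/- and 114, 19 and 32 in Bbs6-/-, and passed as higher in both (adjusted p = 0.00733 and 0.0498). Of the neighbours of Mirlet7a-2, mmu-miR-100 was lower in Bbs6-/- (-1.34 ± 0.39, adjusted p = 0.064) and mmu-miR-125b-1 was lower as well (-2.20 ± 0.66, adjusted p = 0.0663). Mir125b-1 lies 45114 bases from Mirlet7a-2, and the row mmu-miR-125b-1 had only 16, 19 and 79 counts in WT and 4, 26 and 25 in Bbs6-/-. The more abundant row mmu-miR-125b did not pass there (-0.31 ± 0.59, adjusted p = 0.806). Both mmu-miR-100 and mmu-miR-125b-1 were also higher in Bbs4-/- than in Bbs6-/- (adjusted p = 0.0978 and 0.0998), and neither passed in Bbs4-/- against WT. The rows mmu-miR-99b and mmu-miR-125b passed in none of the 3 contrasts, and mmu-miR-125b-2 had too few counts to be tested.

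Apart from the 9 members the table has 8 rows with let-7 in their names, of which 4 could be tested and 0 passed by edgeR in any contrast. The largest was mmu-let-7j, with 59 to 731 counts per library. It had 4.08% to 6.26% of the count of mmu-let-7i in every library, and over 22 bases its sequence differs from that of mmu-let-7i by G8U, inside the seed. The rows mmu-let-7a-1 and mmu-let-7c-2 held the same counts as each other in all 9 libraries, 10 to 26 in WT, 28 to 66 in Bbs4-/- and 55 to 128 in Bbs6-/-. RefSeq gives the 3p arms of these hairpins 1 sequence, so the rows amount to 1 measurement, although the main fits tested them as separate rows. The row mmu-let-7f-1 had 2, 7 and 13 counts in Bbs4-/-, 0, 8 and 0 in Bbs6-/- and none in WT, where 3 counts, the limit that a count of 0 allows, correspond to 19.4 to 36.5 CPM. These limits cover counting error only.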

How the data were processed

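Small RNA from smEV pellets of serum-starved KM cells was sequenced in 9 libraries, 3 per genotype. Adapters were removed by the authors with cutadapt 1.9. They then collapsed reads by unique molecular identifier, removed reads under 15 bases, counted reads per miRNA with miRDeep2 and kept, of several entries for a miRNA, that with most counts. The counts were deposited without normalization. The genome build and miRBase release of that step are not given in the sources used here. The submitters' notes list GRCm38.

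Samples were grouped by the labelled genotype. The column numbers of Bbs6-/- (2, 3, 4) and WT (1, 3, 4) are not those of the labels, and these columns served as unnumbered replicates, named by column.

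Counts were tested in R 4.3.3 with edgeR 4.0.16 (TMM, quasi-likelihood, Benjamini-Hochberg adjustment over all miRNAs tested). Each mutant was compared with WT on their 6 libraries for miRNAs whose counts summed to 6 or more, and the mutants with each other on all 9 libraries where they summed to 9 or more. Levels in CPM were scaled over all 9 libraries. A pass was an adjusted p under 0.1. The SE is the size of the log2 fold change divided by the square root of F. Ratios were tested with scipy 1.17.1. The prior count in log2 CPM for correlations was 2. The fit was tested on simulated data. Members, marker lists, neighbours and the rule for the 5 most similar miRNAs were chosen with earlier results of these data known. The text names all 9 members, the other let-7 rows, the neighbours, mmu-miR-21a and those 5. Alternatives were DESeq2 1.42.0, other scalings, filters, fits, thresholds and denominators, a replicate block and leaving out each library. Sequences and hairpin positions are from RefSeq for GRCm38.p6, overlapping genes from GENCODE vM21, and figures were drawn with matplotlib 3.10.9.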

Additional observations from a re-analysis of the deposited data

Results flagged for a closer look

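The level of mmu-let-7g differed between the mutants in a direct test: its log2 fold change in Bbs4-/- against Bbs6-/- was -0.63 ± 0.18 (SE, edgeR adjusted p = 0.0623), lower in 3 of 3 Bbs4-/- libraries than in any Bbs6-/- library. Leaving out each library in turn, the value stayed between -0.82 and -0.54, and it missed the threshold without Bbs4-/- replicate 1, Bbs4-/- replicate 2 or Bbs6-/- replicate 4.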

How the results depend on the processing

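With upper-quartile scaling, total counts and an adjusted p under 0.05, the members passing were 0, 2 and 2 in Bbs4-/- against WT and 3, 1 and 2 in Bbs6-/- against WT. At an adjusted p under 0.05, 19 of 308 miRNAs were called higher and 17 lower in Bbs4-/-, and 18 of 298 higher and 8 lower in Bbs6-/-. With TMM factors from entries other than let-7, chosen after seeing the data, 2 passed in Bbs6-/- against WT, where 23 of 298 miRNAs were called higher and 16 lower. With filterByExpr 4 passed in Bbs6-/- against WT, mmu-miR-98 as lower, and with robust estimation 5, mmu-let-7f missing the threshold (adjusted p = 0.104). Robust estimation called 31 of 298 miRNAs higher and 15 lower there. In the direct contrast 2 passed with total counts, with no filter and with filterByExpr, and 0 at an adjusted p under 0.05. Over all miRNAs, total counts gave 18 of 309 higher and 9 lower, and no filter 16 of 469 higher and 15 lower. With filterByExpr 16 of 190 were called higher and 10 lower, and at an adjusted p under 0.05, 6 of 309 higher and 7 lower. Without 1 library at a time the counts ran from 1 to 6, 0 to 7 and 0 to 5. Over all miRNAs, these fits called 16 to 34, 9 to 42 and 4 to 22 higher. The calls lower ran from 11 to 21, 5 to 25 and 7 to 21.

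The column numbers were also used as a replicate block. Deviations of same-numbered libraries correlated at -0.13 to 0.37 over 6 pairs. No source says that a number marks a shared origin, and whether it does was not settled. With the replicate block 7 members passed in Bbs4-/- against WT, 8 in Bbs6-/- against WT and 2 in the direct contrast, with 38, 37 and 22 miRNAs called higher and 22, 22 and 12 lower in all.

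Signs turned only for values that did not pass. For mmu-miR-98 in Bbs4-/- against WT the log2 fold change was -0.13 with upper-quartile scaling and -0.12 with total counts. For mmu-let-7g in the same comparison it was 0.0077 with all 9 libraries in the fit, 0.12 with the replicate block and -0.13 to 0.11 without 1 library. For mmu-let-7d in the direct contrast it was -0.066 with upper-quartile scaling, -0.072 with no filter, -0.075 with 6 libraries in the fit, -0.012 with identical entries merged, -0.082 with TMM from other entries and -0.24 to 0.29 without 1 library. Without 1 library the log2 ratio of mmu-let-7d to mmu-let-7a in Bbs4-/- against WT ran from -0.091 to 0.15. That of mmu-let-7b to mmu-let-7c ran from -0.0010 to 0.18 in Bbs6-/- against WT and from -0.064 to 0.093 in the direct contrast. In Bbs6-/- against WT that of mmu-let-7i to mmu-let-7g ran from -0.25 to 0.076 and that of mmu-let-7e to mmu-miR-125a from -0.13 to 0.085.

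The summed share without mmu-miR-21a in the total was 33.7% in Bbs4-/-, 37.6% in Bbs6-/- and 26.9% in WT, and the most abundant member alone gave 7.33%, 7.96% and 6.80%. The causes were not tested. WT depth limits the rows with few counts.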
